A study of Mus musculus with 23 samples.

Results

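The core circadian clock genes were followed in RNA-seq of mouse colonic epithelium. The 10 members were the rows of the count file whose symbol is Arntl, Clock, Npas2, Per1, Per2, Per3, Cry1, Cry2, Nr1d1 or Nr1d2, of 24917 loci in all, and all 10 passed the filter on low counts in every fit. Male C57BL/6 mice (C57BL/6J in the methods of the study) entered the diets at 6 weeks of age. LF mice were kept on a diet with 10% fat for 43 weeks, HF mice on a diet with 60% fat for 43 weeks, and HFLF mice on the 60% fat diet for 15 weeks and then on the 10% fat diet for 28 weeks. Batch 1 held 4 LF, 3 HF and 4 HFLF samples, and batch 2 held 4 LF, 3 HF and 5 HFLF samples. The methods of the study describe 5 mice per regimen, fewer than the samples held by LF, HF and HFLF, so some mice may have been sampled in both batches, and a p-value over the batches together may then treat such samples as independent. The labels and the methods read here give no time of day of collection.

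The clock of mammalian cells is a feedback loop of transcription. ARNTL (also called BMAL1), paired with CLOCK or NPAS2, activates the Per, Cry and Nr1d genes through DNA elements known as E-boxes; the PER and CRY proteins then inhibit the activators, and NR1D1 and NR1D2 (the REV-ERB nuclear receptors) repress Arntl. In the gut the loop runs in epithelial cells and is known to respond to the timing of meals, and the transcripts of its activators and of their targets peak at different times of day. A level measured once per mouse therefore depends on the time at which the tissue was taken as well as on the state of the loop.

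The libraries held 29189922 to 65320947 counts, so that 3 counts corresponded to at most 0.103 CPM (the count of a gene divided by the library total, which was corrected by a TMM factor, and scaled to a fixed sum). All 5 epithelial marker genes were abundant (summed level 8613 to 11964 CPM), whereas the 6 lymphocyte markers summed to 10.6 to 25.6 CPM. The 5 fibroblast markers summed to 2.88 to 51.4 CPM and the 5 smooth muscle markers to 0.54 to 46.5 CPM. Both of these varied widely between samples and were highest in an HFLF sample of batch 1. The library HF 3 of batch 1 stood slightly apart, with a median correlation across genes of 0.979 with the other libraries of its batch, against 0.988 to 0.994 for the others. The fold changes of single members in batch 1 printed for HF against another group are given with and without it. For genes outside the members, batch 1 values are given with it only. Since whole epithelium was sequenced, fewer cells of a type and less RNA per cell cannot be told apart.

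The genes lie, in mm10, at chr7:113207465-113314126 (Arntl), chr5:76209868-76304792 (Clock), chr1:39194272-39363240 (Npas2), chr11:69098956-69109957 (Per1), chr1:91415982-91459328 (Per2), chr4:151003655-151044665 (Per3), chr10:85131700-85185054 (Cry1), chr2:92403647-92434069 (Cry2), chr11:98767932-98775377 (Nr1d1) and chr14:18204056-18239106 (Nr1d2), each position spanning the whole locus with its exons and introns.

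Per1, Per3, Cry2 and Nr1d1 are the members that passed the edgeR test between diets. Stretches of their promoters with known clock elements are shown, together with Cry1, which did not pass. Because these genes were chosen by that result, a relation of the elements to it cannot be read from them and was not tested. RefSeq promoter sequences (GRCm38.p6, 250 bases before to 50 bases after a start) matched 9 of the 10 members, all but Per2. Both strands were searched for the E-box CACGTG, the related element CACGTT, the D-box TTATGTAA, which binds the PAR-bZIP factors DBP, TEF and HLF and their competitor NFIL3, and TAGGTCA, the half-site core bound by ROR and REV-ERB receptors. These letters occurred in 7.15%, 4.68%, 0.938% and 2.61%, respectively, of the 32851 promoters of this length, and none of the matches in the members overlapped another. Capitals mark the element, and each sequence reads 5′ to 3′ on the strand of its gene.
Per1 (chr11:69098753-69098818, plus strand, E-box): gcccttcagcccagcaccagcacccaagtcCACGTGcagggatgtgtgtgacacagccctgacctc
Cry2 (chr2:92434200-92434265, minus strand, CACGTT on the opposite strand): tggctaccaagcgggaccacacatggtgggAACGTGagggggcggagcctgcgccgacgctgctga
Nr1d1 (chr11:98775378-98775435, minus strand, CACGTT on the opposite strand): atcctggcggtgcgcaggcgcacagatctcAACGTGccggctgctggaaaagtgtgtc
Per3 (chr4:151044833-151044900, minus strand, D-box): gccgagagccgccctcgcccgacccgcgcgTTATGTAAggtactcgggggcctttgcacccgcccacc
Per3 (chr4:151044786-151044853, minus strand, a second D-box): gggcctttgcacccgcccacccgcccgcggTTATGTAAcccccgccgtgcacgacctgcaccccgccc
Cry1 (chr10:85185079-85185144, minus strand, E-box): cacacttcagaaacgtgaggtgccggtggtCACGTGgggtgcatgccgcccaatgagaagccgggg
The Cry1 stretch also holds AACGTG in lower case, 19 bases before its E-box. The Arntl promoter held TAGGTCA 30 bases after its start, and the Clock, Npas2 and Nr1d2 promoters held none of these letters. A match describes the letters only and shows no binding.

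The first comparison asked how the members differed between obese and control mice. In batch 2, Nr1d1 fell in HF mice, and Per1, Per3, Cry2 and Npas2 had lower mean levels that did not pass the threshold (adjusted p under 0.05 and fold change over 1.2, edgeR's quasi-likelihood test with Benjamini-Hochberg adjustment over all genes). In batch 1 no member passed, although Per1, Per3, Cry2 and Nr1d1 had lower fitted levels there as well. Over both batches, with batch as a covariate, these 4 genes passed.

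Nr1d1, which encodes the repressor REV-ERBα, stood at 152, 135, 137 and 92.5 CPM in the LF samples of batch 2 and at 88.4, 76.3 and 89.3 CPM in the HF samples. Every HF sample lay below every LF sample, the nearest LF sample being LF 4. The fold change was −0.61 on the log2 scale (SE 0.16, adjusted p = 0.0374). In batch 1 the LF samples held 93.0, 94.2, 103 and 47.6 CPM and the HF samples 55.3, 69.5 and 26.3 CPM. There the groups overlapped, because LF 4 lay below HF 1 and HF 2, and HF 3 was the lowest of all. The log2 fold change was −0.76 (SE 0.30, adjusted p = 0.186), and −0.45 without HF 3 (adjusted p = 0.565).

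Per1, the period gene that also responds acutely to hormonal and cAMP signals, held 101, 142, 118 and 107 CPM in the LF samples of batch 1 and 69.1, 98.1 and 73.5 CPM in the HF samples, without overlap. In batch 2 it held 81.9, 80.6, 87.5 and 97.4 CPM in LF and 85.2, 52.5 and 56.3 CPM in HF, where HF 1 fell within the LF range. The log2 fold changes were −0.56 (SE 0.16, adjusted p = 0.160) and −0.43 (SE 0.14, adjusted p = 0.0658), respectively, and −0.49 in batch 1 without HF 3 (adjusted p = 0.548).

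Per3, the period paralog whose promoter carries the D-boxes shown above, held 146, 184, 167 and 125 CPM in LF and 93.7, 143 and 69.2 CPM in HF mice of batch 1. HF 2 lay within the LF range and the other HF samples below it. In batch 2 the LF samples held 79.6, 85.0, 99.6 and 111 CPM and the HF samples 80.3, 56.1 and 71.4 CPM on the scale common to both batches, where HF 1 stood just above the lowest LF sample; with TMM factors of batch 2 alone, every HF sample lay below every LF sample. The log2 fold changes were −0.62 (SE 0.23, adjusted p = 0.175) and −0.44 (SE 0.15, adjusted p = 0.0715), and −0.40 in batch 1 without HF 3 (adjusted p = 0.557).

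Cry2, a cryptochrome that binds and inhibits the activator pair, held 72.5, 96.3, 78.0 and 73.2 CPM in LF and 50.1, 72.1 and 47.0 CPM in HF mice of batch 1. No HF sample reached the LF range, although HF 2 was within 1 CPM of it. In batch 2 the LF samples held 38.9, 41.1, 47.4 and 46.3 CPM and the HF samples 41.5, 29.6 and 36.0 CPM, with overlap. The log2 fold changes were −0.52 (SE 0.16, adjusted p = 0.161) and −0.28 (SE 0.11, adjusted p = 0.101), and −0.40 in batch 1 without HF 3 (adjusted p = 0.548).

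None of the activators passed in either batch by edgeR, whereas limma voom with sample weights called Npas2 lower in batch 2. Clock, the histone acetyltransferase partner of ARNTL, held 159 to 176 CPM in LF and 188 to 216 CPM in HF mice of batch 1, without overlap, with a log2 fold change of 0.24 (SE 0.08, adjusted p = 0.166), and 0.18 without HF 3 (adjusted p = 0.548). In batch 2 it was −0.09 (SE 0.07, adjusted p = 0.377). Arntl gave 0.19 (SE 0.17, adjusted p = 0.510) in batch 1, where it was 0.035 without HF 3 (adjusted p = 0.941), and −0.27 (SE 0.15, adjusted p = 0.227) in batch 2. Npas2, the CLOCK paralog that can replace it, gave −0.11 (SE 0.23, adjusted p = 0.795) and −0.43 (SE 0.17, adjusted p = 0.105), and −0.075 in batch 1 without HF 3 (adjusted p = 0.918).

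Among the remaining repressors, Per2 gave −0.60 (SE 0.29, adjusted p = 0.235) in batch 1 and 0.11 (SE 0.17, adjusted p = 0.655) in batch 2. Cry1, a repressor whose transcript peaks late in the cycle, gave 0.04 (SE 0.23, adjusted p = 0.933) and 0.39 (SE 0.20, adjusted p = 0.188). Nr1d2, the paralog of Nr1d1, gave −0.16 (SE 0.12, adjusted p = 0.437) and −0.07 (SE 0.12, adjusted p = 0.714), and the difference from Nr1d1 was not tested. Without HF 3 the batch 1 values were −0.37 for Per2 (adjusted p = 0.634), −0.082 for Cry1 (adjusted p = 0.907), which turned its sign, and −0.048 for Nr1d2 (adjusted p = 0.886). The lower fitted values thus did not extend to every repressor of the loop in both batches.

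**Figure D1:**
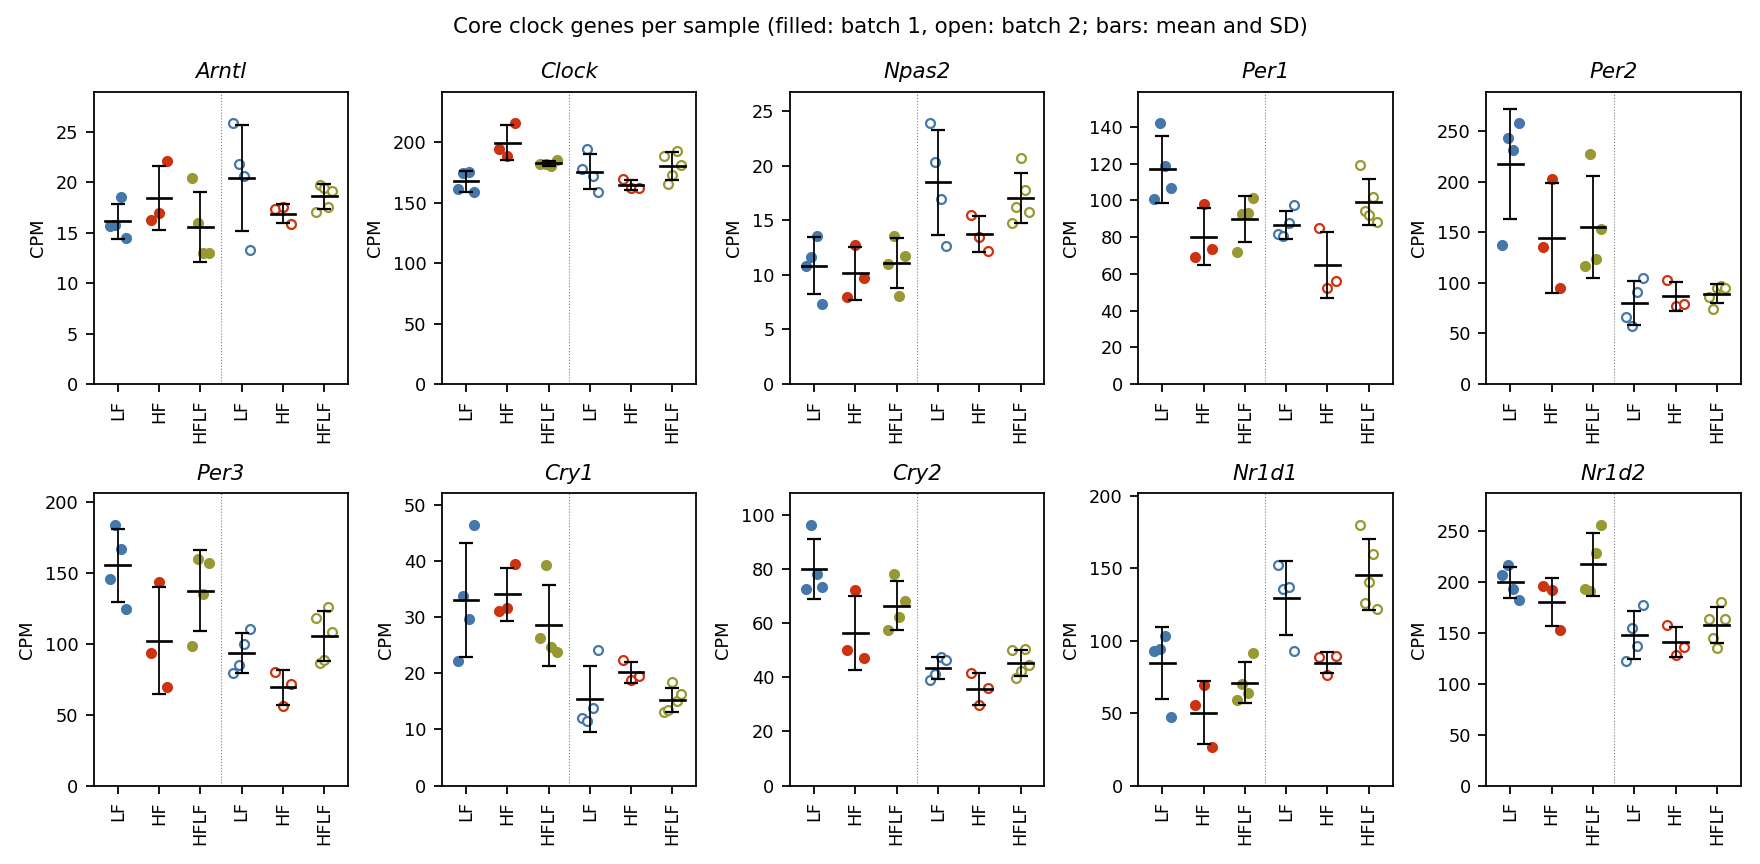
Level of each core clock gene in CPM (vertical axis, starting at 0) in every sample, by diet group (horizontal axis), with batch 1 as filled and batch 2 as open circles, and the mean and SD of each group in black. Nr1d1 in batch 2 lies between 76.3 and 89.3 CPM in the 3 HF samples and between 92.5 and 152 CPM in the 4 LF samples.

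In counts, 0 of 10 members passed between HF and LF in batch 1, where 0% of all 14428 genes tested passed by edgeR. At an unadjusted p under 0.05 there were 5 members (Clock higher, and Per1, Per3, Cry2 and Nr1d1 lower), against 22.2% of all genes. DESeq2 called 1 member there (Per1), among 479 genes called in all. Limma voom with sample weights called 3 (Per1, Per3 and Cry2), among 2422 genes in all. In batch 2, 1 member (Nr1d1) passed, against 7.44% of 14377 genes, and 5 members, all lower, had an unadjusted p under 0.05 against 33.1% of genes. In that batch DESeq2 called 3 (Per1, Per3 and Nr1d1), among 1852 genes in all. Limma voom with sample weights called 5 (Npas2, Per1, Per3, Cry1 and Nr1d1), among 1991 genes in all. Over both batches 4 of 10 passed, all lower, against 18% of 14473 genes. The median log2 fold change of the members was −0.34, −0.28 and −0.26 in batch 1, batch 2 and both, beside medians over all genes tested of −0.0038, −0.013 and −0.0052.

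The groups did not overlap for Per1 and Cry2 (HF lower, as 7.33% of genes) and for Clock (HF higher, as 6.29% of genes) in batch 1. In batch 2 this held for Per3 and Nr1d1 (HF lower, as 13.5% of genes) and for no member with HF higher, against 13.8% of genes. With the batches together, the 4 genes that passed gave log2 fold changes of −0.68 for Nr1d1 (SE 0.18, adjusted p = 0.0116), −0.52 for Per3 (SE 0.15, adjusted p = 0.0142), −0.49 for Per1 (SE 0.13, adjusted p = 0.0105) and −0.40 for Cry2 (SE 0.11, adjusted p = 0.0109). These same 4 genes passed in each of the 23 fits that left out 1 sample. The 23 include fits without an HFLF sample, which enters this contrast only indirectly. Leaving out 1 sample does not remove a mouse that may have been sampled in both batches, so these fits do not address that dependence.

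The single call within a batch by edgeR did not hold in every fit that left out 1 sample. Nr1d1 in batch 2 kept an adjusted p under 0.05 in 6 of the 12 fits that left out 1 sample. It lost it without any 1 of LF 1, LF 2, LF 3, HF 1, HF 2 or HF 3 (highest adjusted p = 0.207, with log2 fold changes of −0.74 to −0.52 over the 12 fits). The fits that kept it were those without LF 4 or without an HFLF sample. HFLF samples enter this contrast only indirectly, so that leaving one out tests the call little. Without LF 4 of batch 2 the members past the threshold were Arntl (−0.43), Npas2 (−0.58), Cry1 (0.69) and Nr1d1 (−0.74). In that fit 2560 genes passed in all, against 1069 with every sample. In batch 1, leaving out HF 2 brought Per1, Per3 and Cry2 past the threshold, among 1352 genes in all, against 0 genes with every sample. In batch 2 the 5 goblet cell markers also summed to less in HF than in LF samples (26062 to 28808 against 30101 to 37380 CPM), as did the 5 smooth muscle markers (0.85 to 4.42 against 5.37 to 28.8 CPM), and their part in the result was not tested. In batch 1 both sums overlapped, at 15151 to 22382 CPM in HF and 17890 to 28951 CPM in LF for goblet cells and at 0.54 to 9.38 and 1.15 to 10.7 CPM for smooth muscle.

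The change between HF and LF was then compared between the batches. No member differed past the threshold, as none of 14725 genes did (0%), by edgeR, the only tool run for this contrast. Clock alone had an unadjusted p under 0.05 (difference of log2 fold changes −0.32, SE 0.10, adjusted p = 0.686), against 6.5% of genes. For Per2, which had fold changes of opposite sign, the difference was 0.73 (SE 0.36, adjusted p = 0.773), and for Nr1d1 it was 0.17 (SE 0.36, adjusted p = 0.968).

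The second comparison asked whether the members differed between formerly obese and obese mice. In batch 2, Nr1d1, Per1, Per3 and Cry2 were higher in HFLF than in HF mice. The HF samples are those of the first comparison, so that both comparisons move with the same 3 libraries. In batch 1 no member passed.

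For Nr1d1 the HFLF samples of batch 2 held 179.9, 126, 140.4, 159.8 and 122 CPM, all above the HF samples, and the log2 fold change was 0.79 (SE 0.15, adjusted p = 0.0131). Those of batch 1 held 59.1, 69.8, 63.7 and 91.4 CPM and overlapped with HF 2, with a log2 fold change of 0.49 (SE 0.30, adjusted p = 0.532), and 0.18 without HF 3 (adjusted p = 0.997). All 5 HFLF samples thus exceeded the HF samples in batch 2, whereas in batch 1 the difference was within the spread between samples.

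For Per1 the HFLF samples held 119, 94.0, 92.1, 102 and 88.4 CPM in batch 2, above all HF samples (log2 fold change 0.62, SE 0.14, adjusted p = 0.0156), and 72.2, 92.6, 93.0 and 101 CPM in batch 1 (0.16, SE 0.15, adjusted p = 0.693, and 0.098 without HF 3). Per3 held 118, 86.2, 88.4, 126 and 108 CPM in batch 2, again above all HF samples (0.61, SE 0.15, adjusted p = 0.0186), and 98.1, 159.9, 135 and 157 CPM in batch 1 (0.43, SE 0.23, adjusted p = 0.492, and 0.21 without HF 3). Both period genes separated HFLF from HF samples in batch 2, and whether this change differed between the batches was not tested.

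Cry2 held 50.0, 39.7, 42.2, 50.4 and 44.5 CPM in HFLF mice of batch 2, where HFLF 2 lay below HF 1 (0.35, SE 0.11, adjusted p = 0.0378), and 57.4, 78.0, 62.1 and 68.2 CPM in batch 1 (0.23, SE 0.16, adjusted p = 0.576, and 0.12 without HF 3). Cry1 went the other way without passing: its HFLF samples of batch 2 held 13.1 to 18.4 CPM, below the 18.8 to 22.4 CPM of HF (−0.39, SE 0.19, adjusted p = 0.143). Arntl, Clock, Npas2, Per2 and Nr1d2 gave log2 fold changes of 0.05 to 0.32 in batch 2, with adjusted p-values of 0.166 to 0.837. In the same batch the 4 enteroendocrine markers summed to 220 to 299 CPM in HFLF and 313 to 338 CPM in HF samples, and the 5 markers of absorptive colonocytes to 4420 to 6253 and 6268 to 7063 CPM, neither with overlap, and their part in the result was not tested.

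**Figure D2:**
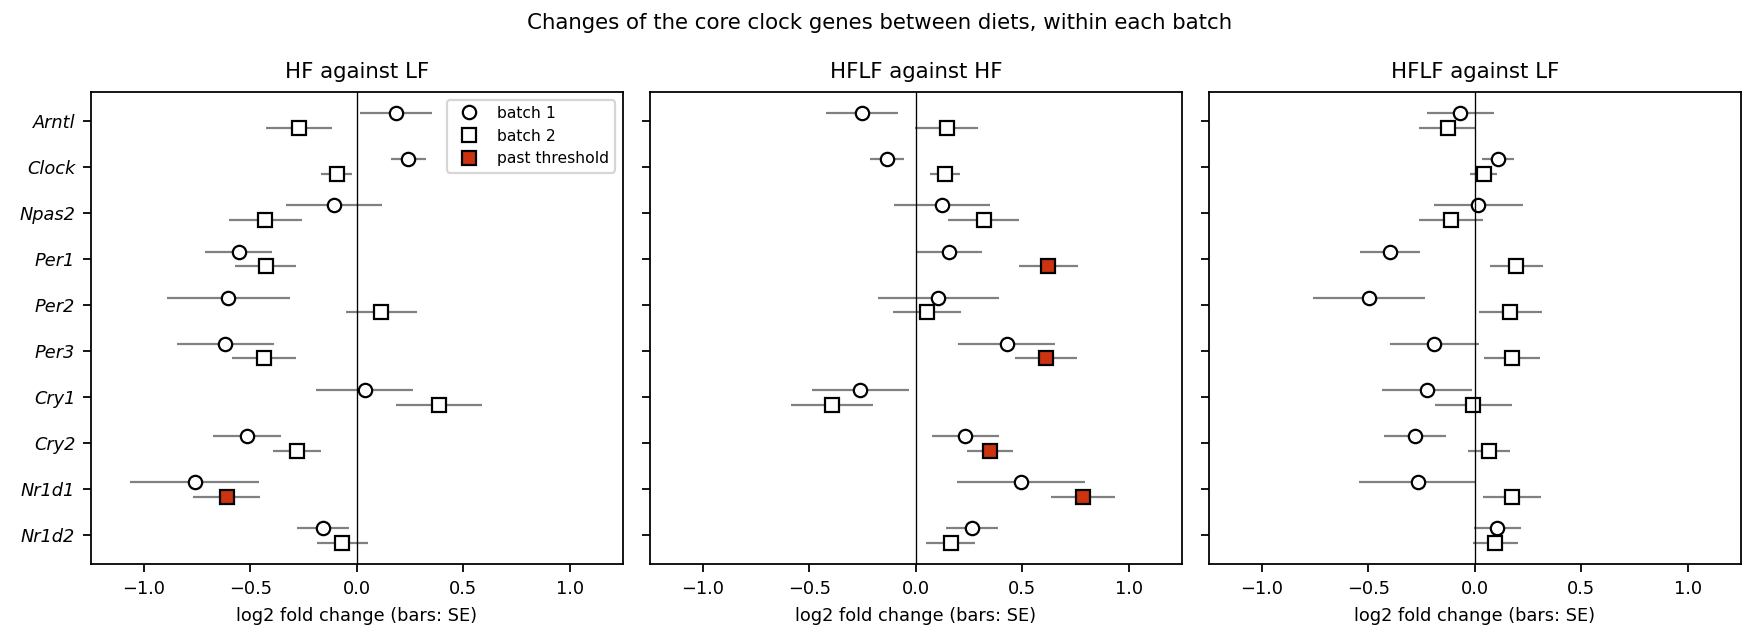
Log2 fold change of each core clock gene (horizontal axis, bars SE) between the diet groups named above each panel, with batch 1 as circles, batch 2 as squares and red where the threshold was passed. Red squares stand at −0.61 for Nr1d1 in HF against LF, at 0.35 to 0.79 for Cry2, Per3, Per1 and Nr1d1 in HFLF against HF, and nowhere in HFLF against LF.

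Thus 4 of 10 members passed between HFLF and HF in batch 2, against 14.5% of genes, 0 of 10 in batch 1, against 0.00693%, and 4 of 10 over both batches, against 10.3%. At an unadjusted p under 0.05, 1 member (Nr1d2, 0.26, SE 0.12, and 0.16 without HF 3) stood in batch 1, against 10.9% of genes, and neither DESeq2 nor limma voom called a member there. HFLF samples lay all above HF samples for 3 members in batch 2 (Per1, Per3 and Nr1d1), against 14.6% of genes, and all below for Cry1, against 12.4%. In batch 1 the corresponding counts were 0 (3.95% of genes) and 1, Clock (4.07% of genes).

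These calls depended on single samples. Without HF 2 of batch 2 no member passed in batch 2 or over both batches, without HF 3 of batch 2 only Nr1d1 passed in batch 2, with Per3 and Nr1d1 over both, and without HF 3 of batch 1 no member passed over both. Over both batches only Per3 and Nr1d1 passed without HF 1 of batch 1 or without HFLF 1 or HFLF 4 of batch 2. The Cry2 call was the least secure: over both batches it was lost in 17 of the 23 fits that left out 1 sample, with RLE factors and with no filter on low counts, and in batch 2 it was lost in 5 of 12 fits (without HF 2, HF 3, HFLF 1, HFLF 4 or HFLF 5). The log2 fold changes over both batches were 0.66 for Nr1d1 (SE 0.18, adjusted p = 0.0215), 0.53 for Per3 (SE 0.14, adjusted p = 0.0213), 0.41 for Per1 (SE 0.13, adjusted p = 0.0318) and 0.30 for Cry2 (SE 0.10, adjusted p = 0.0482).

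The third comparison set formerly obese mice beside controls. No member passed in batch 1 (0% of genes), batch 2 (0.00696% of genes) or both (0% of genes) by edgeR, and DESeq2 and limma voom called none either. At an unadjusted p under 0.05 stood 1 member in batch 1 (Per1, log2 fold change −0.40, SE 0.14, adjusted p = 0.792), 0 in batch 2 and 0 in both, against 5.29%, 4.65% and 4.07% of genes. With TMM factors of batch 1 alone, the groups did not overlap for Per1 (HFLF lower) and Clock (HFLF higher). The share of all genes was not counted for this. In batch 2 the 6 lymphocyte markers summed to 13.9 to 16.6 CPM in HFLF and 10.6 to 13.8 CPM in LF samples, and their part was not tested. Over both batches the log2 fold changes lay between −0.16 for Per2 (SE 0.17) and 0.11 for Nr1d2 (SE 0.08), with −0.02 for Nr1d1 (SE 0.16) and −0.08 for Per1 (SE 0.12). In batch 1 alone the widest value was that of Per2 (−0.50, SE 0.26, adjusted p = 0.792). A p above the threshold does not show that HFLF and LF mice were alike.

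More members passed between the batches than between any of the diets. Each batch held more samples than any diet group, so these counts do not come from tests of equal size. With diet as a covariate, 7 of 10 passed in batch 2 against batch 1, compared with 24% of genes. Per2 was lower in batch 2 by the largest amount among the members (log2 fold change −1.01, SE 0.15, adjusted p = 1.11e-05), with 94.6 to 258 CPM in batch 1 and 57.8 to 104 CPM in batch 2. Cry1 was also lower (−0.93, SE 0.13, adjusted p = 3.39e-06), with 22.2 to 46.5 CPM in batch 1 and 11.5 to 24.1 CPM in batch 2, as were Cry2 (−0.69, SE 0.08, adjusted p = 4.26e-07), Per3 (−0.55, SE 0.11, adjusted p = 0.000418) and Nr1d2 (−0.42, SE 0.07, adjusted p = 2.78e-05).

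Nr1d1 and Npas2 went the opposite way, being higher in batch 2 by 0.81 (SE 0.14, adjusted p = 7.47e-05) and 0.62 (SE 0.11, adjusted p = 0.000132). The paralogs Nr1d1 and Nr1d2 therefore differed between batches in opposite directions. Arntl (0.18, SE 0.10, adjusted p = 0.135), Clock (−0.06, SE 0.05, adjusted p = 0.354) and Per1 (−0.18, SE 0.10, adjusted p = 0.153) did not pass. Some marker sums reached higher in batch 2, with overlapping ranges and without a test. Goblet markers stood at 15151 to 28951 CPM in batch 1 and 23603 to 40349 CPM in batch 2, and enteroendocrine markers at 132 to 234 and 220 to 338 CPM. Other lists did not, such as the epithelial markers at 9016 to 11964 and 8613 to 10346 CPM. The part of composition was not tested, and handling, the mice and the time of collection cannot be told apart within the batch term.

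**Figure D3:**
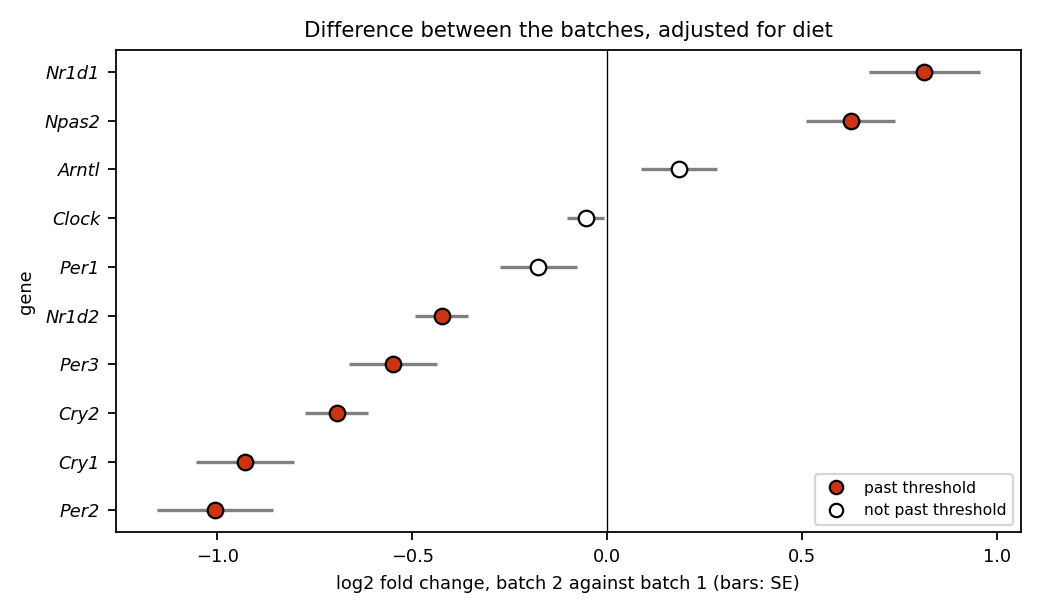
Log2 fold change of each core clock gene in batch 2 against batch 1, adjusted for diet (horizontal axis, bars SE), with genes on the vertical axis in order of the change and red points past the threshold. Per2 at −1.01 and Cry1 at −0.93 stand at the low end, and Npas2 at 0.62 and Nr1d1 at 0.81 at the high end.

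The spread between samples of the same diet and batch was described next, as the SD of log2 CPM around the group means. Nr1d1 had an SD of 0.51 in batch 1, above 92.6% of genes, and Per2 0.46, above 90.0%, where the median of all genes was 0.20. Clock had 0.08, below most genes (percentile 3.74). In batch 2 the median of all genes was 0.13, Cry1 had the largest SD among the members (0.31, percentile 86.0) and Clock again the smallest (0.09, percentile 26.9). The other members lay between percentiles 39.3 and 81.4 in batch 1 and between 63.9 and 81.4 in batch 2.

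Some samples departed in several members at once. LF 4 of batch 2 lay below the LF mean in Arntl (−0.57 log2 units), Npas2 (−0.50) and Nr1d1 (−0.46) and above it in Cry1 (0.71) and Per2 (0.42). LF 4 of batch 1 had −0.76 for Nr1d1, −0.53 for Npas2, −0.14 for Arntl, 0.54 for Cry1 and 0.29 for Per2. The samples differed in sign for Per1 (−0.12 in batch 1 and 0.17 in batch 2), Per3 (−0.30 and 0.25), Cry2 (−0.12 and 0.10) and Nr1d2 (−0.13 and 0.27).

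HF 3 of batch 1 lay below its group in Nr1d1 (−0.82), Per2 (−0.54) and Per3 (−0.50) and above it in Arntl (0.27), while HF 2 of batch 1 lay above in the same repressors (0.58, 0.56 and 0.55). With 3 samples in the group, these deviations are not independent of each other. The ratio of Nr1d1 to Arntl counts within a library, which needs no scaling between libraries, was 0.25 on the log2 scale in HF 3 of batch 1, 1.54 to 2.81 in the other samples of that batch and 2.12 to 3.40 in batch 2.

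**Figure D4:**
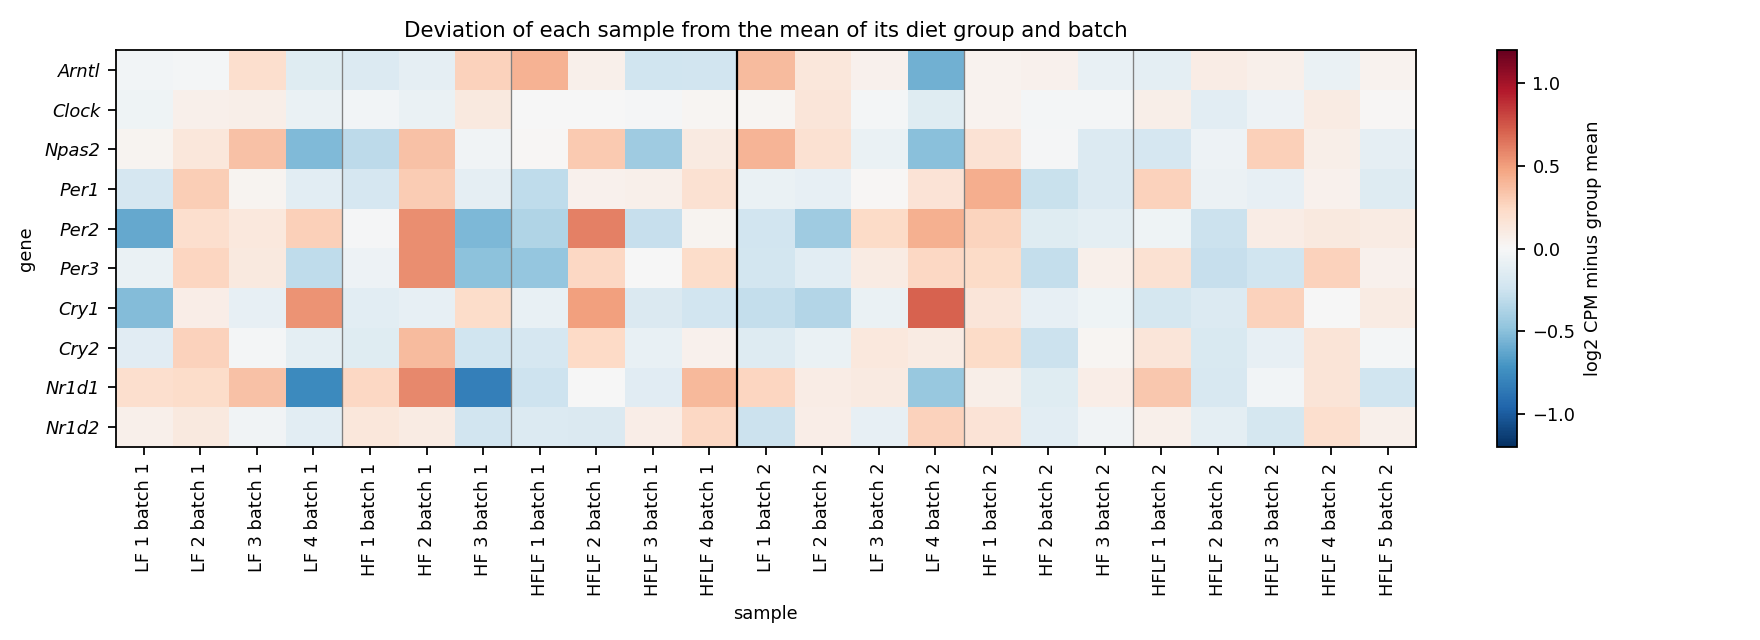
Deviation of log2 CPM from the mean of the diet group and batch (color) for each core clock gene (rows) in each of the 23 samples (columns), with the vertical black line between the batches. LF 4 of batch 2 combines −0.57 in Arntl with 0.71 in Cry1, and HF 3 of batch 1 has −0.82 in Nr1d1.

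Whether activator and repressor genes deviated together was tested within batches by correlating the deviations of Arntl with those of each other member, over 18 relations in all (two-sided permutation test within diet groups, Benjamini-Hochberg adjusted). None passed an adjusted p of 0.05 by either coefficient. The smallest permutation p-values of r were those of Npas2 in batch 2 (r = 0.86, permutation p = 0.00689, adjusted p = 0.0620; rho = 0.77, permutation p = 0.00823, adjusted p = 0.0641) and Per3 in batch 2 (r = −0.63, permutation p = 0.00496, adjusted p = 0.0620; rho = −0.71, permutation p = 0.00511, adjusted p = 0.0641), each over 12 samples. Cry1 in batch 2 had a larger r than Per3 without a small p (r = −0.76, permutation p = 0.151, adjusted p = 0.340; rho = −0.52, permutation p = 0.153, adjusted p = 0.320), and r was −0.039 without the 2 samples named next. Cry2 in batch 2 came near by rank only (rho = −0.64, permutation p = 0.0107, adjusted p = 0.0641; r = −0.47, permutation p = 0.0443, adjusted p = 0.160).

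Without the 2 samples farthest from the median of Arntl (LF 1 and LF 4 of batch 2), r was 0.53 for Npas2 and −0.64 for Per3. Nr1d2, which represses Arntl, had r of −0.73 in batch 1 (permutation p = 0.0536, adjusted p = 0.160; rho = −0.71, permutation p = 0.0716, adjusted p = 0.184) and −0.70 in batch 2 (permutation p = 0.0281, adjusted p = 0.160; rho = −0.66, permutation p = 0.0344, adjusted p = 0.146). These became −0.55 and −0.33 without the 2 farthest samples of each batch, which were HF 3 and HFLF 1 in batch 1. The relation of Arntl with Nr1d1 changed sign on leaving out those samples in both batches, from −0.32 to 0.20 and from 0.52 to −0.59, and so rests on them.

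Genes outside the loop with the most similar pattern were described by Pearson's r of deviations from the 6 group means over 23 samples, among 14472 genes and with no test. For Arntl, the most positive were Smox, encoding spermine oxidase (0.80), the transcription factor E2f2 (0.77), Klhl3 (0.75), the vasopressin receptor gene Avpr2 (0.74) and Ereg, encoding an EGF receptor ligand (0.73). The most negative were Lrrn3 (−0.87), Tef (−0.85), 5930438M14Rik (−0.78), Pcgf5 (−0.76) and Ciart (−0.75), of which Tef, a D-box activator, and Ciart, a repressor of the ARNTL and CLOCK pair, are clock-associated genes. Lrrn3 and Tef held in each batch, at −0.87 and −0.80 in batch 1 and −0.86 and −0.89 in batch 2.

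For Nr1d1 the most similar genes were Pyroxd2 (0.93), 2310067B10Rik (0.92), Acrbp (0.92), D2hgdh (0.90) and Ccdc116 (0.89), and none was a clock gene of the lists used. For Per1 the first was another member, Cry2 (0.83, with 0.86 in batch 1 and 0.80 in batch 2), followed by Ston1 (0.82), Ptk2b (0.80), Xrn1 (0.79) and Upf2 (0.79). Samples shared depth, handling and composition in all of these values.

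The accessory clock genes, a list of 19 measured regulators and outputs (PAR-bZIP factors, ROR receptors, kinases and ubiquitin ligases of the loop, and others), were counted beside the members. Between HF and LF, 0 of 19 passed in batch 1 (6 at an unadjusted p under 0.05, all lower, or 31.6% against 22.2% of all genes), 1 in batch 2 (7.44% of all genes) and 3 over both batches (18% of all genes), all lower, so that their share of calls was near or below that of all genes. The 4 of largest change in batch 2 were Rora, an activator of Arntl (log2 fold change −0.79, SE 0.18, adjusted p = 0.0310), Bhlhe41, a repressor at E-boxes (0.50, SE 0.49, adjusted p = 0.494), Arntl2, the paralog of Arntl (−0.49, SE 0.23, adjusted p = 0.150), and the PAR-bZIP factor Hlf (0.45, SE 0.56, adjusted p = 0.590). Only Rora passed, and in batch 1 it gave −0.39 (SE 0.19, adjusted p = 0.242).

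Over both batches Rora (−0.58), Dbp (−0.62) and Usp2 (−0.37) passed as lower. In batch 1 and batch 2 Dbp gave −1.09 (SE 0.37, adjusted p = 0.166) and −0.21 (SE 0.12, adjusted p = 0.222). Usp2 gave −0.68 (SE 0.16, adjusted p = 0.137) and −0.08 (SE 0.13, adjusted p = 0.683). For the difference of this change between the batches, 0 of 19 passed. At an unadjusted p under 0.05 there were 5, all with a positive difference, or 26.3% against 6.5% of all genes. Dbp, the PAR-bZIP output of the E-box, and Usp2, a deubiquitinase, were singled out here after their values were seen, as 2 of the 3 that passed. Between HFLF and HF in batch 2, Rora (0.58, SE 0.18, adjusted p = 0.0353) and Arntl2 (1.10, SE 0.22, adjusted p = 0.0133) rose, and they were the only 2 of 19 to pass there and over both batches, against 14.5% and 10.3% of all genes. None of the 19 passed in batch 1 for this comparison. There 4 had an unadjusted p under 0.05, or 21.1% against 10.9% of all genes. None passed between HFLF and LF in any fit by edgeR. At an unadjusted p under 0.05 there were 1, 2 and 1 in batch 1, batch 2 and both. These are 5.26%, 10.5% and 5.26%, against 5.29%, 4.65% and 4.07% of all genes. Between the batches, 7 of 19 passed, 1 higher and 6 lower in batch 2, against 24% of all genes.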

How the data were processed

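Total RNA of colonic epithelium, released from the whole colon with 5 mM EDTA in PBS, had been sequenced after depletion of ribosomal RNA. The authors deposited raw counts of reads per gene locus for 23 samples, without normalization. The submitters' processing notes name cutadapt 1.2.1, STAR 2.5, featureCounts 1.5.0-p1 and mm10. Whether counting used strand, and how reads on several genes were treated, is not given in the sources used here.

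The deposited counts went into edgeR 4.0.16 under R 4.3.3 (TMM factors, filterByExpr, quasi-likelihood F test, Benjamini-Hochberg over all genes), with the 3 diets in 1 fit per batch, and over both batches with batch as a covariate. Genes were called at an adjusted p under 0.05 and a fold change over 1.2. Group overlap was read from CPM with factors of the batch. Log2 values used a pseudocount of 0.1 CPM. Correlations were tested with 100000 permutations (scipy 1.17.1). DESeq2 1.42.0, limma voom 3.58.1 with sample weights, RLE factors, no filter on low counts, a replicate block and leaving out each sample were tried as alternatives. The scripts were tested on simulated data. The CPM value of 3 counts covers counting error only. The members and gene lists were chosen with earlier results of these data known. Named genes are the 10 members, the accessory clock genes by counts with the 4 of largest change between HF and LF in batch 2, and the 5 genes most similar to Arntl (in each direction), Nr1d1 and Per1. Replicates are separate samples by the labels, and p-values measure the spread between them.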

Additional observations from a re-analysis of the deposited data

Results flagged for a closer look

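Cry1 in HFLF 2 of batch 1 stood at 39.2 CPM, far from the next sample of its group at 26.3 CPM and the lowest at 23.9 CPM (gap over range 0.843, Dixon's criterion). It was the only 1 of 40 groups of members tested in this way, and chance alone is known to mark about 1 in 20. The groups tested were LF and HFLF groups only. HF groups, with 3 samples each, were too small for the criterion and were not tested.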

How the results depend on the processing

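Members past the threshold between HF and LF numbered 0 in batch 1 and 1 in batch 2 by the main test. They were 1 and 3 by DESeq2, and 3 and 5 by limma voom with sample weights. Leaving out single samples gave 0 to 3 in batch 1 and 0 to 4 in batch 2, 0 to 5 for HFLF against HF in batch 2 (4 by the main test) and 0 to 4 over both batches (4 by the main test). The cause of these shifts was not tested. Over both batches the count for HF against LF was 4 under every alternative run, and for HFLF against LF it was 0 in every fit run.

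With a replicate block the counts for HF against LF were 1 in batch 1 (Cry2) and 4 in batch 2 (Per1, Per3, Cry1 and Nr1d1). By deviations from the group means over all genes, samples sharing a number correlated above 0.1 in 5 of 10 pairs in batch 1 and 4 of 10 in batch 2. Pairs with different numbers did so in 8 of 30 and 10 of 37. The medians were 0.082 and 0.075 for shared numbers, against −0.029 and −0.032. Between the batches, within a diet, 4 of 11 pairs sharing a number and 9 of 34 others were above 0.1. Whether the numbers mark pairs was not tested, and the main test did not use them. Nr1d2 for HF against LF turned to 0.016 and Per2 for HFLF against HF to −0.070 in batch 2 under the block, and Cry1 for HF against LF turned to −0.050 in batch 1 under limma voom. None of these values passed a test.

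Other log2 fold changes that turned sign on leaving out a sample lay near 0. For HF against LF they ran from −0.30 to 0.045 (Npas2) and −0.11 to 0.25 (Cry1) in batch 1, and from −0.026 to 0.27 (Per2) and −0.15 to 0.027 (Nr1d2) in batch 2. For HFLF against HF they ran from −0.025 to 0.31 (Npas2) and −0.15 to 0.43 (Per2) in batch 1 and from −0.036 to 0.19 (Per2) in batch 2.

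Without the 2 samples farthest from the median of Arntl, its correlations turned to 0.24 (Per2), 0.17 (Per3), 0.21 (Cry2) and 0.20 (Nr1d1) in batch 1 and to −0.19 (Clock) and −0.59 (Nr1d1) in batch 2, and none of the 18 passed with or without those samples. The alternatives of RLE factors and no filter on low counts moved no count of members by over 1.5 times, but both ended the Cry2 call for HFLF against HF over both batches (3 members in place of 4). Groups of 3 to 5 samples limit every comparison.

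Counts over all genes moved too. Between HF and LF in batch 1 the main test called 0 genes, DESeq2 479, limma voom 2422 and the block 92, and in batch 2 they called 1069, 1852, 1991 and 2080, respectively. Without HF 2 of batch 1 the count in that batch was 1352, and without LF 4 of batch 2 it was 2560 in batch 2.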
